A study of Mus musculus with 21 samples.

Results

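The genes described here encode the extracellular matrix, the enzymes that fold and crosslink collagen, the contractile proteins of fibroblasts and smooth muscle, and a few ligands and receptors of stromal cells, measured in cultures of macrophages. The list held 47 genes of the 25067 named in the count table. They were chosen by symbol, and each gene was represented by its transcript of highest mean count. The RNA came from bone marrow-derived macrophages of C57Bl6/J males aged 6 to 12 weeks, grown from marrow for 7 days with 15% L929-conditioned medium, the supernatant of a fibroblast line that feeds macrophages. Cultures labelled Nur77-KO or wild type (WT) were given lipopolysaccharide (LPS, from the outer membrane of Gram-negative bacteria) at 100 ng/ml for 0, 4 or 18 h. Each time had 3 labelled-KO libraries, numbered 2 to 4, and 4 WT libraries, numbered 1 to 4, which made 21 libraries. Nr4a1 is the gene of the nuclear receptor Nur77. For the labelled KO the genotype is tagged cre, while the allele, the driver of any Cre and the pooling of animals are not stated. The labels do not say whether a number marks a mouse, and each p-value rests on the spread among libraries, which may be technical.

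Extracellular matrix is made mainly by mesenchymal cells. Fibroblasts secrete fibrillar collagens, which the chaperone encoded by Serpinh1 helps to fold and lysyl oxidases crosslink, while basement membranes are built from collagen IV, laminins, nidogens and perlecan. Myofibroblasts and smooth muscle cells also make a contractile apparatus of smooth muscle actin and its binding proteins. In marrow these cells form the stroma that supports blood formation, and the culture of marrow with macrophage growth factor is meant to leave macrophages. Some matrix proteins are also made by macrophages, among them versican, thrombospondin 1 and fibronectin, so the list mixes genes of both origins.

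Libraries held 12301504 to 29650081 counts over all named genes. All 10 macrophage markers, among them Adgre1 and Csf1r, were detected in every group, with summed levels of 13611 to 22886 CPM in labelled-KO libraries and 13989 to 26595 CPM in WT libraries (CPM, counts scaled to a common library size). Nr4a1 stood at 12.4, 12.2 and 12.4 CPM in the labelled-KO libraries, against 13.4, 16.2, 15.2 and 14 CPM in the WT libraries at 0 h, at 0.531, 0.869 and 1.21 CPM in the labelled-KO libraries, against 7.25, 2.16, 1.74 and 1.3 CPM in the WT libraries at 4 h, and at 2.96, 2.1 and 3.48 CPM in the labelled-KO libraries, against 1.04, 1.33, 0.965 and 1.08 CPM in the WT libraries at 18 h. Its log2 fold change of labelled KO over WT was -0.25 ± 0.30, adjusted p = 0.75 at 0 h, -1.77 ± 0.50, adjusted p = 0.04 at 4 h and 1.35 ± 0.44, adjusted p = 0.023 at 18 h, so the transcript was lower in the labelled KO at 4 h only and higher at 18 h. Which exons are disrupted is not stated, so these counts do not check the labels, and every direction between genotypes rests on them.

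Some libraries stood apart for nearly all of these genes, and the values below are given library by library in order of their numbers. Of the 47 members 45 passed the expression filter and were tested; Lum, which encodes the collagen-binding proteoglycan lumican, and Mgp, which encodes an inhibitor of calcification, did not. Lum had at most 4 counts in any library. Mgp had at most 18 counts in a labelled-KO library and 49 in a WT library, and that maximum was WT number 2 at 0 h. Of the 45 tested members, labelled-KO number 4 was the highest labelled-KO library for 40 at 0 h, 44 at 4 h and 44 at 18 h, and number 2 was the lowest for 35, 38 and 43. Libraries of the same number may share a source, so these repeats over time are not known to be independent. Among WT libraries number 2 was highest for 43 members at 0 h and 36 at 4 h, and number 3 was highest for 39 at 18 h.

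**Figure D1:**
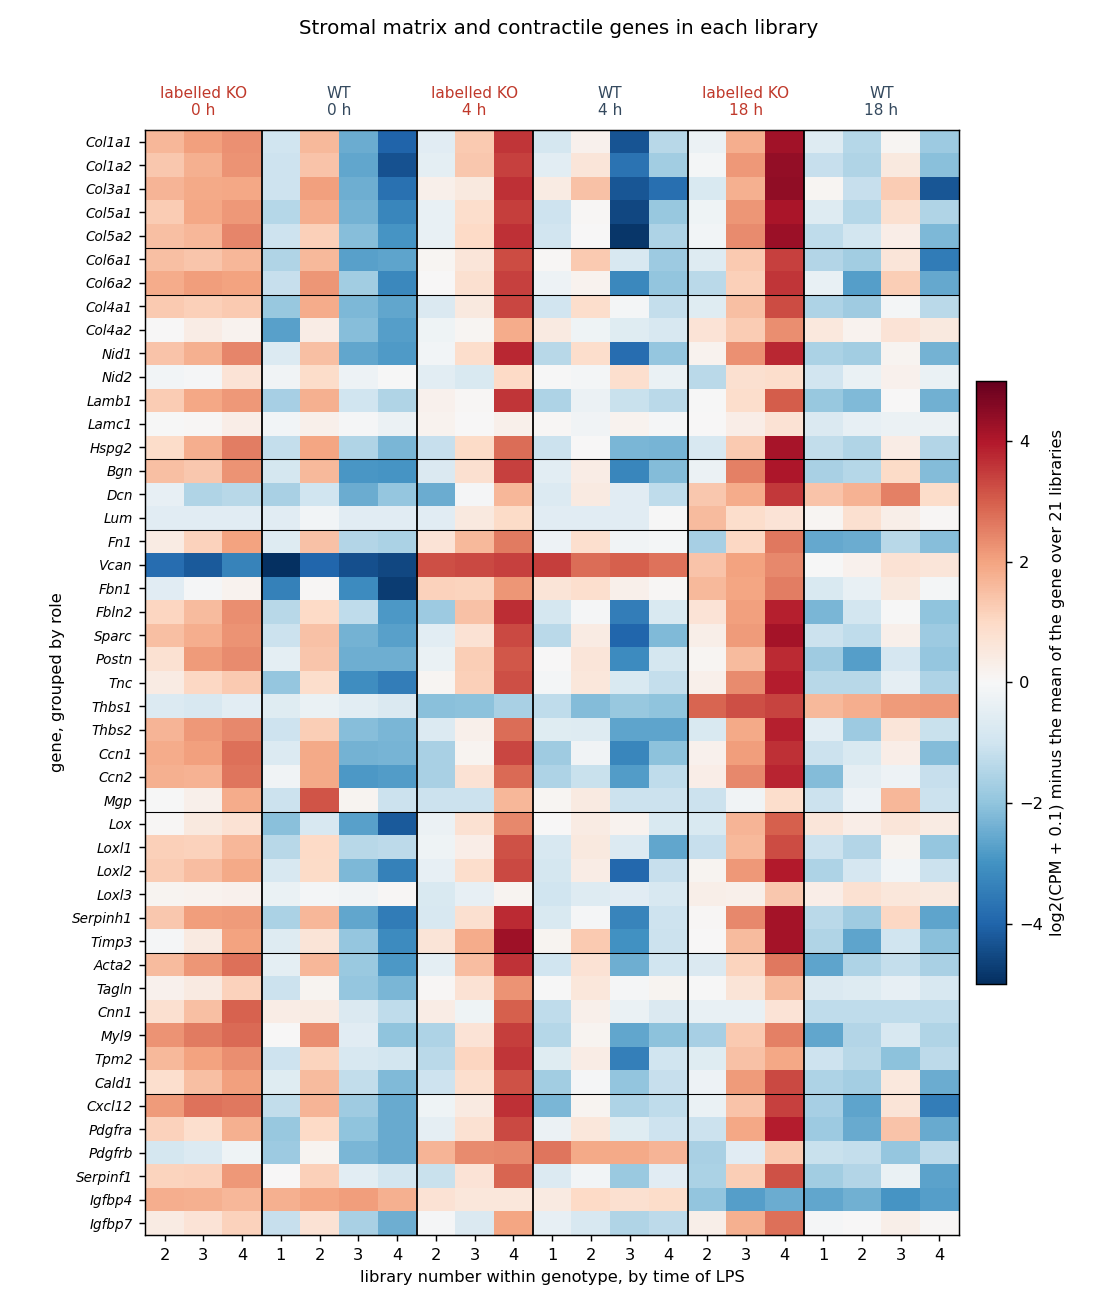
Level of the 47 genes (rows, grouped by role) in the 21 libraries (columns, labelled KO left of WT at each time). Colour gives log2(CPM + 0.1) minus the mean of the gene over all libraries; labelled-KO number 4 at 4 and 18 h is red in most rows, while Vcan, Thbs1, Lamc1, Loxl3 and Igfbp4 differ little within a group.

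The spread within a group was wide for most members and narrow for a few. Among the 32 members with at least 10 counts in every labelled-KO library at 18 h, the highest library was 1.38 to 40.2 times the lowest, with a median of 12.8. At 0 h the same ratio over 43 members was 1.04 to 4.23 with a median of 1.74, so the 3 labelled-KO libraries were closer to each other before LPS. In WT libraries the median ratio was 6.98 over 18 members at 0 h, 2.08 over 16 at 4 h and 2.37 over 23 at 18 h. Members with fewer than 10 counts in any library of the group have no ratio, which removes widely spread ones. Col1a1 in WT at 4 h, at 6.89, 14.8, 0.548 and 4.79 CPM, is among those removed. The WT medians thus cover fewer and other members, and cannot be set against those of the labelled KO. Lamc1, Thbs1 and Igfbp4 stayed under a ratio of 2 in all 6 groups.

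The comparison that moved most members was labelled KO against WT at 18 h of LPS. There 37 of 45 members were called higher in the labelled KO (adjusted p below 0.05 over all 12529 genes tested) and 0 lower, against 16.6% of all tested genes called higher and 15.6% called lower. With edgeR 40 members were higher and 0 lower at an unadjusted p under 0.05, and DESeq2 called 36 higher and 0 lower. Of all 12529 genes, 5247 had an unadjusted edgeR p under 0.05 in either direction, and DESeq2 called 2527 higher and 1664 lower. The median log2 fold change of the members was 3.57, and that of all tested genes was -0.01. In RNA from whole cultures, more cells of a type and more RNA per cell cannot be told apart. Much of this count rested on 1 library. Leaving out labelled-KO number 4 at 18 h left 6 members called, when 1338 of all 12669 genes tested were called higher. Leaving out number 4 at every time left 9, against 10.2% of all genes tested then. Among WT libraries, leaving out number 1, 2, 3 or 4 at 18 h kept 32, 29, 36 and 31 of the 37 calls. Over all genes 1648, 1749, 1955 and 1795 were then called higher. Among the members Pdgfrb was lost each time, and Col3a1, Col6a1, Myl9 and Pdgfra without number 1, 2 or 4.

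Some markers of mesenchymal cells that are not members moved with these libraries, and others did not. Prrx1, a transcription factor of mesenchymal cells, was at 0.609, 3.5 and 12.4 CPM in the labelled-KO libraries at 18 h, against 0.305, 0.117, 1.61 and 0 CPM in the WT libraries. Number 4 of the labelled KO and number 3 of the WT were again the highest. The summed level of all 12 fibroblast and mesenchymal markers was 191 to 331 CPM in the labelled KO and 71.6 to 115 CPM in WT at 18 h, and Pdpn, which LPS-treated macrophages also express, held 184, 257 and 313 CPM of it in the labelled KO and 69.8, 73.9, 111 and 106 CPM in WT. Fap did not follow the order of Prrx1, at 6.18, 3.33 and 4.91 CPM in the labelled KO and 1.22, 1.49, 1.61 and 0.85 CPM in WT. Without Pdpn and Fap the remaining markers summed to 0.783, 4.2 and 13.7 CPM in the labelled KO and 0.61, 0.157, 1.77 and 0.0566 CPM in WT. In the labelled KO most of that sum was Prrx1 itself, so its order of libraries adds nothing to that of Prrx1. In both genotypes at 18 h the fibroblast markers Dpt, Twist2, Meox2, Tcf21 and Clec3b had no count. Smooth muscle and pericyte markers (8 genes) summed to 2 to 8.46 CPM in the labelled KO and 0.623 to 1.02 CPM in WT, and endothelial markers (8 genes, Cldn5 with no count) to 56.8 to 65.9 CPM and 50.8 to 64.6 CPM. Neutrophil markers (8 genes, Mpo with no count) summed to 318 to 449 CPM in the labelled KO and 183 to 267 CPM in WT. Adipocyte markers (6 genes, Adipoq and Cfd with no count) summed to 343 to 733 CPM and 912 to 1100 CPM. Plin1 had no count in the labelled KO, so that sum was Fabp4, Lpl and Pparg alone. Markers of marrow stroma and osteoblasts (8 genes, Ibsp with no count) summed to 1054 to 1602 CPM and 721 to 946 CPM. Bglap had no count in the labelled KO and Sp7 none in WT. Such sums do not measure the amount of a cell type. Leaving out the library of highest Prrx1 in each group removed WT number 3 along with labelled-KO number 4 and kept 34 of the 37 calls at 18 h, with Prrx1 still at 0.609 and 3.5 CPM in the labelled-KO libraries left and at most 0.305 CPM in those of WT. Of all 12489 genes tested then, 1183 were called higher. The part of these cell types in the result was not tested.

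Fibrillar collagens form the tensile fibres of connective tissue, and all 5 members were called higher in the labelled KO at 18 h. Col1a1, a chain of collagen I, was at 10.4, 45.3 and 238 CPM in the labelled-KO libraries, against 8.12, 4.7, 13.8 and 3.57 CPM in the WT libraries (log2 fold change 3.77 ± 1.06, adjusted p = 0.0096). Its partner chain Col1a2 was at 14.6, 70.2 and 325 CPM in the labelled-KO libraries, against 6.96, 5.36, 21.7 and 3.57 CPM in the WT libraries (3.95 ± 1.08, adjusted p = 0.0082). For both genes labelled-KO number 2 lay below the highest WT library, number 3, so the groups overlapped. Col3a1, the fibrillar collagen of pliable tissue, was at 1.04, 6.57 and 42 CPM in the labelled-KO libraries, against 2.01, 0.783, 4.67 and 0 CPM in the WT libraries (3.32 ± 1.23, adjusted p = 0.043). Col5a1, a chain of the collagen V that starts fibrils, was at 1.92, 10.8 and 39.3 CPM in the labelled-KO libraries, against 1.4, 0.783, 4.02 and 0.736 CPM in the WT libraries (3.47 ± 1.04, adjusted p = 0.015). Its partner Col5a2 was at 2.52, 14.7 and 55.8 CPM in the labelled-KO libraries, against 1.1, 1.45, 3.54 and 0.51 CPM in the WT libraries (3.99 ± 0.99, adjusted p = 0.0043). In each of these genes number 4 held over 3 times the level of number 3, and number 2 stood below the highest WT library. Without number 4 none of the 5 was called, with log2 fold changes of 1.16 for Col3a1 to 2.46 for Col5a2.

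The same collagens in the other 2 times showed where the spread lay. At 0 h Col1a1 was at 40.9, 53.7 and 62.4 CPM in the labelled-KO libraries, against 6.39, 39.4, 2.19 and 0.703 CPM in the WT libraries. At 4 h it was at 8.6, 31.4 and 153 CPM in the labelled-KO libraries, against 6.89, 14.8, 0.548 and 4.79 CPM in the WT libraries. Before LPS every labelled-KO library was above every WT library, though WT number 2 came close, and at 4 h the groups overlapped. Col1a2 was at 39.5, 53.7 and 72.7 CPM in the labelled-KO libraries, against 7.48, 41.5, 2.5 and 0.656 CPM in the WT libraries at 0 h, and at 11, 39.2 and 168 CPM in the labelled-KO libraries, against 10.6, 23.7, 1.1 and 4.57 CPM in the WT libraries at 4 h. WT number 2 at 0 h stood at the level of labelled-KO number 2, while WT number 4 was at the bottom of the range.

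Collagen VI forms beaded filaments between cells and matrix. Col6a1 was at 1.04, 4.38 and 18.9 CPM in the labelled-KO libraries, against 0.549, 0.43, 2.65 and 0.0566 CPM in the WT libraries at 18 h (3.36 ± 1.11, adjusted p = 0.025). Col6a2 was at 0.261, 2.01 and 10.9 CPM in the labelled-KO libraries, against 0.61, 0.0391, 2.09 and 0.0566 CPM in the WT libraries (2.93 ± 1.22, adjusted p = 0.072). Col6a1 was called and Col6a2 was not, and in both labelled-KO number 2 lay below WT number 3. The 2 genes are neighbours on chromosome 10.

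Basement membrane genes gave 5 calls of 7 at 18 h. Lamc1, a laminin chain shared by most laminins, was at 54.7, 68 and 87.8 CPM in the labelled-KO libraries, against 32.4, 39.9, 43.4 and 43 CPM in the WT libraries (0.83 ± 0.15, adjusted p = 0.00026). Every labelled-KO library was above every WT library, and the libraries of a group were close to one another. Nid1, which links laminin to collagen IV, was at 1.48, 6.74 and 18.8 CPM in the labelled-KO libraries, against 0.366, 0.313, 1.45 and 0.17 CPM in the WT libraries (4.16 ± 1.10, adjusted p = 0.0068), and its groups were apart by a small margin. Lamb1, another laminin chain, was at 0.696, 1.4 and 6.61 CPM in the labelled-KO libraries, against 0.122, 0.0783, 0.724 and 0.0566 CPM in the WT libraries (3.83 ± 1.14, adjusted p = 0.014), with labelled-KO number 2 just below WT number 3; its summed counts were 117 in the labelled KO and 14 in WT. Hspg2, which encodes perlecan, was at 0.696, 3.33 and 23.7 CPM in the labelled-KO libraries, against 0.488, 0.391, 1.69 and 0.397 CPM in the WT libraries (3.80 ± 1.08, adjusted p = 0.011), and overlapped. Nid2, the second nidogen, was at 0.261, 1.49 and 1.56 CPM in the labelled-KO libraries, against 0.366, 0.626, 0.965 and 0.623 CPM in the WT libraries and was not called (0.82 ± 0.55, adjusted p = 0.27).

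Of the collagen IV chains, which pair in 1 molecule, the test called Col4a1 alone. Col4a1 was at 2, 8.76 and 30.4 CPM in the labelled-KO libraries, against 0.976, 0.822, 2.82 and 1.13 CPM in the WT libraries (3.38 ± 1.06, adjusted p = 0.018) and Col4a2 at 7.23, 10.9 and 22.2 CPM in the labelled-KO libraries, against 6.41, 5.01, 7.08 and 6.17 CPM in the WT libraries (1.14 ± 0.56, adjusted p = 0.13) at 18 h. Col4a1 was called although its groups overlapped, and Col4a2 was not called although every labelled-KO library was above every WT library. The genes lie head to head on chromosome 8 and are read in opposite directions from start sites that nearly meet, Col4a1 from position 11312826 leftward and Col4a2 from position 11312805 rightward (start site of 1 RefSeq transcript each, build GRCm38.p6). The span of Col4a1 over all its transcripts reaches position 11312889, so the overlap can be longer. The bases from 1 start site to the other are shown because transcripts of both genes cover them, in capitals throughout for that reason:
Col4a1 and Col4a2 start sites (chr8:11312805-11312826, plus strand): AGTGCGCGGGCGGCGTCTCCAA
The counting's use of strand is not stated, so reads in this overlap cannot be told apart between the genes.

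Small leucine-rich proteoglycans bind collagen fibrils and growth factors. Bgn, which encodes biglycan, was at 4.96, 35.9 and 104 CPM in the labelled-KO libraries, against 1.95, 2.23, 12.1 and 1.3 CPM in the WT libraries at 18 h (3.61 ± 1.06, adjusted p = 0.013), and labelled-KO number 2 lay below WT number 3. Dcn, which encodes decorin, was at 1.31, 1.93 and 6.33 CPM in the labelled-KO libraries, against 1.4, 1.76, 3.06 and 0.963 CPM in the WT libraries and was not called (0.87 ± 0.60, adjusted p = 0.28). Dcn moved with LPS in both genotypes, as given with the other LPS responses.

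Glycoproteins and matricellular proteins, which join cells to matrix or tune their attachment, gave 11 calls of 11 members tested at 18 h. Fn1, which encodes fibronectin, was at 9.66, 62.4 and 192 CPM in the labelled-KO libraries, against 5.13, 5.48, 11.7 and 7.02 CPM in the WT libraries (3.64 ± 0.80, adjusted p = 0.0017). Labelled-KO number 2 lay within the WT range, and number 4 was far above it. Tnc, which encodes the repair-associated glycoprotein tenascin C, was at 6.7, 29.6 and 86.6 CPM in the labelled-KO libraries, against 2.07, 2.11, 4.1 and 1.87 CPM in the WT libraries (4.07 ± 0.88, adjusted p = 0.0015) and did not overlap. Vcan, which encodes the large proteoglycan versican, was at 90.4, 136 and 175 CPM in the labelled-KO libraries, against 33.1, 38.7, 55.3 and 51.2 CPM in the WT libraries (1.59 ± 0.22, adjusted p = 1.6e-05). Thbs1, which encodes thrombospondin 1, an activator of latent TGF-beta, was at 11253, 14054 and 15569 CPM in the labelled-KO libraries, against 4640, 5303, 6498 and 6727 CPM in the WT libraries (1.23 ± 0.18, adjusted p = 3.8e-05). Vcan and Thbs1 did not overlap, and their 3 labelled-KO libraries were close to one another. Fbn1, the fibrillin of elastic microfibrils, was at 15.7, 20.1 and 30.2 CPM in the labelled-KO libraries, against 2.99, 3.95, 7.08 and 4.7 CPM in the WT libraries (2.26 ± 0.57, adjusted p = 0.0046), also without overlap.

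Sparc, a collagen-binding matricellular protein, was at 8.71, 31.1 and 130.3 CPM in the labelled-KO libraries, against 3.36, 2.9, 8.45 and 1.93 CPM in the WT libraries at 18 h (3.87 ± 0.99, adjusted p = 0.0054). Postn, which encodes periostin, was at 4.27, 12.1 and 54.8 CPM in the labelled-KO libraries, against 1.1, 0.509, 2.17 and 0.963 CPM in the WT libraries (4.46 ± 1.01, adjusted p = 0.0021). Fbln2, a fibulin of elastic fibres and basement membranes, was at 1.65, 4.47 and 15.8 CPM in the labelled-KO libraries, against 0.122, 0.47, 0.965 and 0.17 CPM in the WT libraries (4.17 ± 1.00, adjusted p = 0.0035). None of these overlapped, and the margin between labelled-KO number 2 and the highest WT library was small for Sparc. Ccn2, formerly CTGF, was at 3.22, 13.7 and 36.8 CPM in the labelled-KO libraries, against 0.488, 1.8, 2.09 and 1.08 CPM in the WT libraries (3.73 ± 0.94, adjusted p = 0.0049). Ccn1, formerly Cyr61, was at 1.04, 4.03 and 12 CPM in the labelled-KO libraries, against 0.366, 0.47, 1.13 and 0.113 CPM in the WT libraries (3.57 ± 1.07, adjusted p = 0.014). Both are known targets of YAP and TAZ. Ccn2 did not overlap, while for Ccn1 labelled-KO number 2 lay below WT number 3. Thbs2, the thrombospondin of connective tissue, was at 0.609, 4.29 and 17.4 CPM in the labelled-KO libraries, against 0.732, 0.235, 1.69 and 0.453 CPM in the WT libraries (3.43 ± 0.96, adjusted p = 0.0093), and overlapped.

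Of 6 genes for collagen crosslinking, folding and turnover, 4 were called higher at 18 h. Timp3, a matrix-bound inhibitor of metalloproteinases, was at 3.74, 11.1 and 67.2 CPM in the labelled-KO libraries, against 1.22, 0.509, 1.77 and 0.793 CPM in the WT libraries and had the largest log2 fold change of the called members (4.80 ± 1.08, adjusted p = 0.002). Loxl2, a lysyl oxidase active on collagen IV, was at 1.57, 6.74 and 23.9 CPM in the labelled-KO libraries, against 0.427, 0.744, 1.29 and 0.623 CPM in the WT libraries (3.86 ± 0.93, adjusted p = 0.0034). Timp3 and Loxl2 did not overlap. Serpinh1, the collagen chaperone HSP47, was at 2.79, 14.6 and 49 CPM in the labelled-KO libraries, against 0.976, 0.704, 5.47 and 0.34 CPM in the WT libraries (3.77 ± 1.10, adjusted p = 0.012). Loxl1, the oxidase of elastic fibres, was at 0.174, 1.75 and 5.76 CPM in the labelled-KO libraries, against 0.183, 0.117, 0.563 and 0.0566 CPM in the WT libraries (3.66 ± 1.05, adjusted p = 0.012). In both labelled-KO number 2 lay below WT number 3. Lox, the main collagen crosslinker, was at 5.66, 31.6 and 76.4 CPM in the labelled-KO libraries, against 14.5, 12.1, 14.5 and 12.6 CPM in the WT libraries (1.52 ± 0.60, adjusted p = 0.058). Loxl3 was at 23.7, 22.9 and 49.8 CPM in the labelled-KO libraries, against 24.3, 32.9, 28.6 and 27.2 CPM in the WT libraries (0.19 ± 0.21, adjusted p = 0.52). Neither was called; labelled-KO number 2 was the lowest library of all 7 for Lox, and for Loxl3 number 4 alone stood above the WT range.

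**Figure D2:**
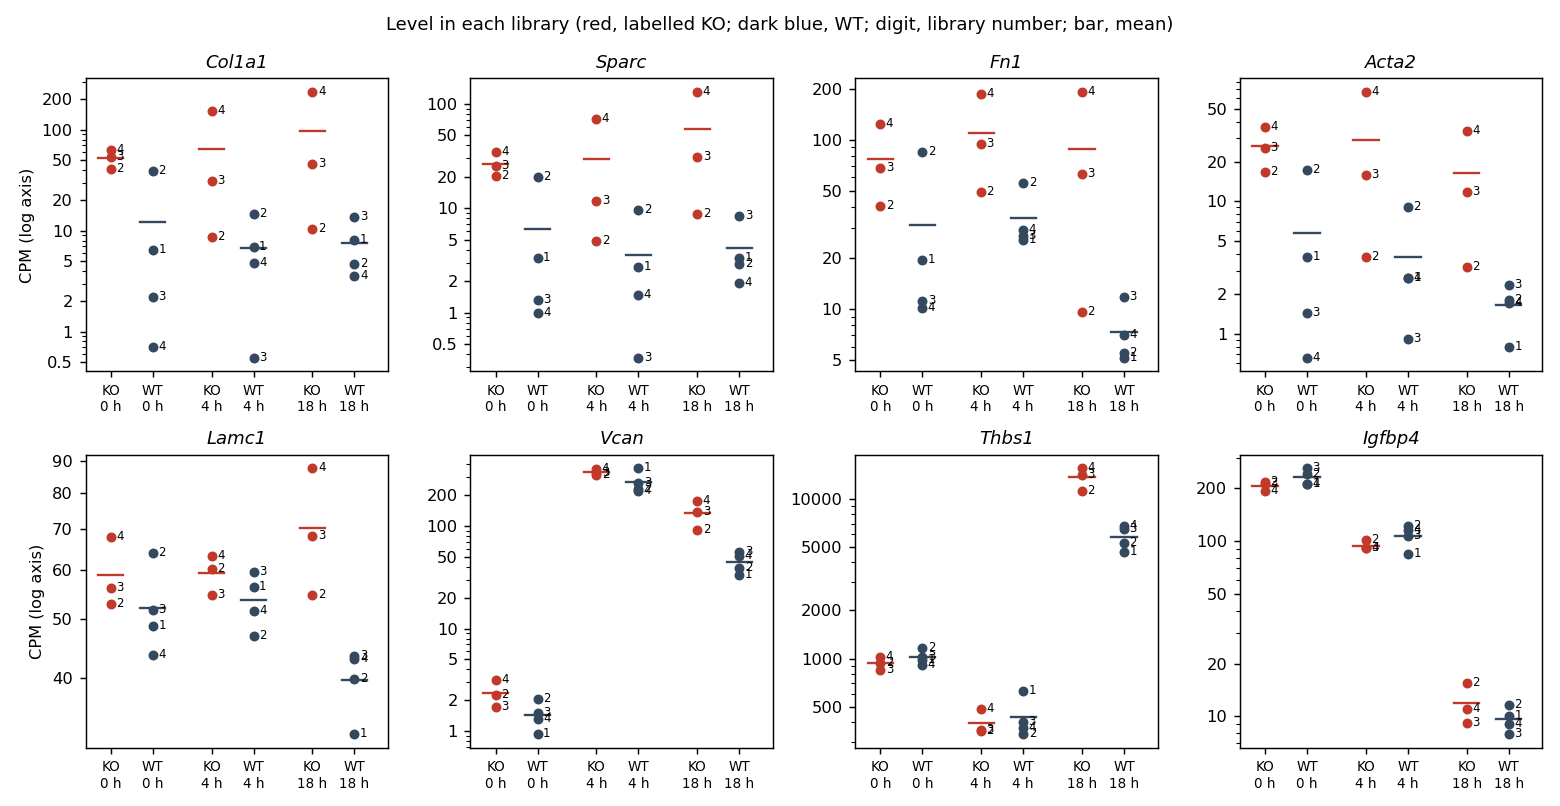
CPM (log axis) of 8 members in each library, by time of LPS, with labelled KO (red) left of WT (dark blue); digits are library numbers and bars are means. Col1a1, Sparc, Fn1 and Acta2 run over more than 10-fold within the labelled KO at 18 h, while Lamc1, Vcan, Thbs1 and Igfbp4 stay within 2-fold.

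Contractile genes are the hallmark of smooth muscle and of activated fibroblasts, and 5 of 6 were called higher at 18 h. Acta2, smooth muscle actin, was at 3.22, 11.8 and 34.2 CPM in the labelled-KO libraries, against 0.793, 1.8, 2.33 and 1.7 CPM in the WT libraries (3.34 ± 1.00, adjusted p = 0.015). Tagln, which encodes the actin-bundling protein SM22, was at 7.49, 11.9 and 22.7 CPM in the labelled-KO libraries, against 4.52, 4.77, 5.55 and 4.3 CPM in the WT libraries (1.57 ± 0.50, adjusted p = 0.02). Neither gene overlapped between the groups. The actin genes are near copies of each other, and how the counting divided reads among them is not stated; Actg2, the other smooth muscle actin, was at 0.871, 1.14 and 3.56 CPM in the labelled KO and 0.061, 0.0391, 0.161 and 0.0566 CPM in WT. Cald1, which encodes caldesmon, was at 3.57, 19.3 and 42.8 CPM in the labelled-KO libraries, against 1.4, 1.25, 6.27 and 0.68 CPM in the WT libraries (3.34 ± 0.93, adjusted p = 0.0095), and overlapped. Tpm2, a muscle tropomyosin, was at 0.609, 2.89 and 4.05 CPM in the labelled-KO libraries, against 0.427, 0.313, 0.161 and 0.34 CPM in the WT libraries (2.98 ± 0.95, adjusted p = 0.02), without overlap. Myl9, the regulatory light chain of smooth muscle myosin, was at 0.0871, 1.4 and 3.34 CPM in the labelled-KO libraries, against 0, 0.117, 0.241 and 0.113 CPM in the WT libraries (3.81 ± 1.32, adjusted p = 0.031), from 64 counts in the labelled KO and 8 in WT, and overlapped. Cnn1, which encodes calponin, had 6 counts in the labelled-KO libraries and 0 in the WT libraries at 18 h and was not called (adjusted p = 0.1).

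Serum response factor drives contractile genes through the CArG box, an A and T stretch between CC and GG. In the 250 bases before the start site of 1 RefSeq transcript of each gene (build GRCm38.p6), a CArG box, or one in which 1 of the 6 inner bases is C or G, was found in 2 of the contractile genes that were called at 18 h and have a promoter sequence. Each is shown in capitals with 10 bases on either side, written 5′ to 3′ along the gene, because both genes were called higher there:
Acta2 (chr19:34255438-34255467, minus strand): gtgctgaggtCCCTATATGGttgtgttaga
Acta2 (chr19:34255388-34255417, minus strand): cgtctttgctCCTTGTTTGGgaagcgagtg
Myl9 (chr2:156775293-156775322, plus strand): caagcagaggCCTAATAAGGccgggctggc
Myl9 (chr2:156775355-156775384, plus strand): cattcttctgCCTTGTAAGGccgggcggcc
Acta2 held 2 boxes of the second kind, beginning at positions -84 and -34 from the start site, and Myl9 held 1 box of the strict kind at -161 and 1 of the second kind at -99. The span RefSeq gives to a gene over all its transcripts begins at -212 for Acta2 and -56 for Myl9 on the same scale, so the Acta2 boxes lie inside that span and the Myl9 boxes before it. Either kind reads as the same pattern on both strands, and a box counts as 1 kind only. The strict box was in 378 of 27025 promoters of this length (1.4%) and in 1 of the 31 members with a promoter sequence, Myl9. The second kind was in 1994 promoters (7.38%) and in 6 of those 31 members, Acta2, Myl9, Col1a2, Fbln2, Timp3 and Serpinf1. A match is a stretch of letters and not a measured site.

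Ligands, receptors and other secreted proteins gave 5 calls of 6 at 18 h. Cxcl12, the chemokine by which marrow stroma retains blood stem cells, was at 0.783, 2.89 and 11.8 CPM in the labelled-KO libraries, against 0.244, 0.0783, 1.61 and 0 CPM in the WT libraries (3.75 ± 1.17, adjusted p = 0.019). Pdgfra, the receptor that marks many fibroblasts, was at 0.174, 2.1 and 8.61 CPM in the labelled-KO libraries, against 0.061, 0, 1.45 and 0 CPM in the WT libraries (3.63 ± 1.20, adjusted p = 0.025). Both overlapped through WT number 3. Pdgfrb, the receptor of pericytes, was at 0.609, 1.4 and 5.41 CPM in the labelled-KO libraries, against 0.915, 0.861, 0.483 and 0.793 CPM in the WT libraries (1.70 ± 0.64, adjusted p = 0.047), and its groups overlapped too. Serpinf1, the antiangiogenic factor PEDF, was at 0.348, 3.07 and 12.2 CPM in the labelled-KO libraries, against 0.305, 0.391, 0.965 and 0.113 CPM in the WT libraries (3.67 ± 0.92, adjusted p = 0.0046), and overlapped. Igfbp7, a secreted binding protein of growth factors, was at 2.79, 7.79 and 15.4 CPM in the labelled-KO libraries, against 2.14, 2.23, 2.73 and 2.32 CPM in the WT libraries (1.90 ± 0.60, adjusted p = 0.019), apart from WT by a small margin. Igfbp4, which binds insulin-like growth factors, was at 15.4, 9.11 and 11 CPM in the labelled-KO libraries, against 10.1, 11.6, 7.88 and 9.06 CPM in the WT libraries and was not called (0.27 ± 0.17, adjusted p = 0.22); number 2, the lowest labelled-KO library for most members, was the highest for Igfbp4.

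**Figure D3:**
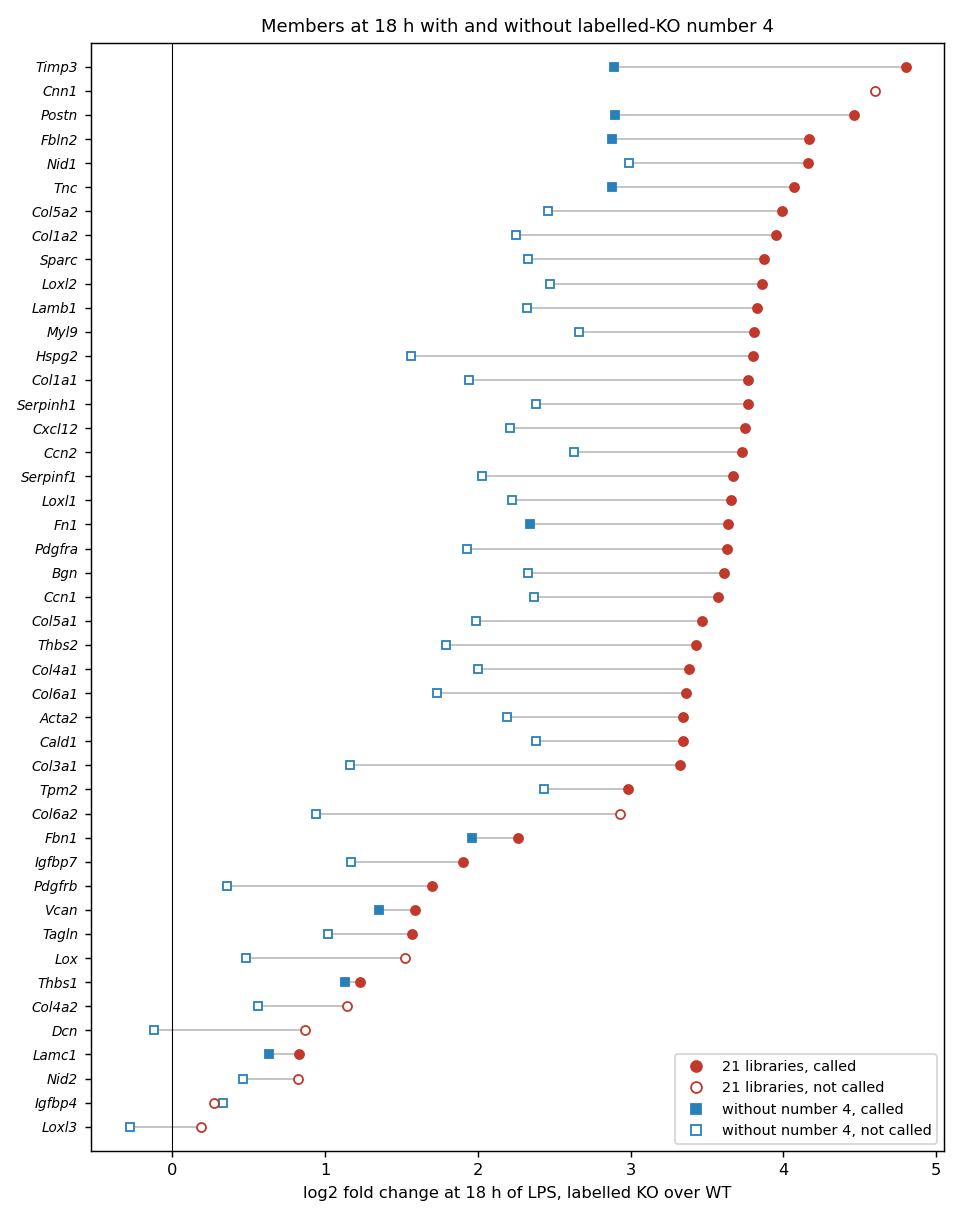
Log2 fold change of labelled KO over WT at 18 h for the 45 members tested (rows), from all 21 libraries (circles) and without labelled-KO number 4 at every time (squares); filled symbols are called. Of the 37 filled circles 9 have a filled square, and Cnn1 has no square because it failed the filter.

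The 9 members called at 18 h without labelled-KO number 4 were the matrix glycoproteins Fn1, Vcan, Fbn1, Fbln2, Postn, Tnc and Thbs1, the laminin chain Lamc1 and the inhibitor Timp3. Their log2 fold changes were then 0.63 for Lamc1, 1.13 for Thbs1, 1.35 for Vcan, 1.96 for Fbn1, 2.34 for Fn1, 2.88 for Tnc, 2.88 for Fbln2, 2.89 for Timp3 and 2.90 for Postn. No fibrillar collagen, collagen VI, contractile, ligand or receptor gene was among them. Every labelled-KO library was above every WT library for 18 of 45 members at 18 h, against 18.2% of all tested genes: Col4a2, Nid1, Lamc1, Vcan, Fbn1, Fbln2, Sparc, Postn, Tnc, Thbs1, Ccn2, Loxl2, Timp3, Acta2, Tagln, Cnn1, Tpm2 and Igfbp7.

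Before LPS the labelled-KO libraries also lay mostly above the WT libraries, with few calls. At 0 h 1 of 45 members was called higher and 0 lower, against 1.11% of all tested genes called higher and 2.87% called lower. At an unadjusted p under 0.05 edgeR gave 22 higher and 0 lower, and DESeq2 called 1 higher and 0 lower. Of all 12529 genes, 1989 had an unadjusted edgeR p under 0.05 in either direction, and DESeq2 called 225 higher and 456 lower. The called gene was Lox, at 9.9, 13.3 and 15.8 CPM in the labelled-KO libraries, against 2.18, 5.46, 1.36 and 0.422 CPM in the WT libraries (2.42 ± 0.67, adjusted p = 0.045). Its groups did not overlap, and WT number 2 was the highest WT library. Lox was not called when labelled-KO number 2, 3 or 4 or WT number 1, 3 or 4 at 0 h was left out. Every labelled-KO library was above every WT library for 13 members, against 8.99% of all tested genes: Col1a1, Col5a2, Fbln2, Sparc, Thbs2, Lox, Loxl1, Loxl2, Loxl3, Tagln, Cnn1, Tpm2 and Cxcl12.

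A single WT library decided how many members were called before LPS. Without WT number 2, 28 members were called higher at 0 h, among them Fbn1 (log2 fold change 3.76), Col4a2 (2.88), Tagln (2.32), Acta2 (3.60) and Cxcl12 (4.58). Over all genes, 185 of the 12495 tested then were called higher. Acta2 shows the pattern at 16.6, 25.3 and 36.7 CPM in the labelled-KO libraries, against 3.83, 17.2, 1.44 and 0.656 CPM in the WT libraries. Fbn1 was at 3.44, 4.88 and 5.7 CPM in the labelled-KO libraries, against 0.399, 5.32, 0.482 and 0.0937 CPM in the WT libraries. Sparc was at 20.3, 25.2 and 34.4 CPM in the labelled-KO libraries, against 3.35, 19.8, 1.31 and 0.984 CPM in the WT libraries. In each gene WT number 2 was near the labelled-KO libraries, and WT numbers 1, 3 and 4 were below all of them. Prrx1 was likewise at 2.42 CPM in WT number 2, against 0.16, 0.0876 and 0 CPM in WT numbers 1, 3 and 4, and at 1.91, 2.02 and 3.59 CPM in the labelled KO.

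At 4 h 4 of 45 members were called higher in the labelled KO and 0 lower, against 2.87% of all tested genes called higher and 2.7% called lower. At an unadjusted p under 0.05 edgeR gave 34 higher and 0 lower, and DESeq2 called 6 higher and 0 lower. Of all 12529 genes, 2572 had an unadjusted edgeR p under 0.05 in either direction, and DESeq2 called 535 higher and 361 lower. Col5a2 was at 2.12, 5.65 and 36.4 CPM in the labelled-KO libraries, against 1.41, 2.81, 0 and 0.896 CPM in the WT libraries (3.64 ± 1.06, adjusted p = 0.048). Lamb1 was at 0.85, 0.761 and 9.69 CPM in the labelled-KO libraries, against 0.184, 0.562, 0.274 and 0.224 CPM in the WT libraries (3.78 ± 1.09, adjusted p = 0.045). Fbln2 was at 0.212, 2.93 and 13.9 CPM in the labelled-KO libraries, against 0.492, 0.937, 0 and 0.537 CPM in the WT libraries (3.58 ± 1.02, adjusted p = 0.042). Tpm2 was at 0.319, 2.17 and 12.9 CPM in the labelled-KO libraries, against 0.615, 1.31, 0 and 0.448 CPM in the WT libraries (3.23 ± 0.85, adjusted p = 0.028). Number 4 was the highest library in each of these genes, and Lamb1 was the one among them that did not overlap. Without labelled-KO number 4, WT number 3 or WT number 4 at 4 h none was called, and without WT number 1 or 2 Tpm2 alone of the 4 stayed called. Without labelled-KO number 2 there were 10 calls, when 224 of all 12717 genes tested were called higher and 158 lower. Every labelled-KO library was above every WT library for 2 members, Lamb1 and Fbn1, against 8.47% of all tested genes.

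The response to LPS within a genotype involved few members, and the 2 genotypes share no libraries. In the labelled KO 4 of 45 members rose and 2 fell at 4 h against 0 h (33.5% and 41.5% of all tested genes), and 8 rose and 2 fell at 18 h against 0 h (34.5% and 38.5%). In WT 5 rose and 3 fell at 4 h (35.1% and 43%), and 7 rose and 5 fell at 18 h (34.8% and 36.3%). From 4 to 18 h, 3 members rose and 3 fell in the labelled KO (33.3% and 32.1%), and 3 rose and 5 fell in WT (37.2% and 34.5%). The median log2 fold change of the members was 0.42 at 4 h and 0.86 at 18 h in the labelled KO, and -0.62 and -0.72 in WT, with all genes at -0.14 and -0.08 in the labelled KO and -0.17 and -0.05 in WT.

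Versican had the largest rise. Vcan in the labelled KO was at 2.28, 1.72 and 3.15 CPM at 0 h, 310.5, 326 and 359.6 CPM at 4 h and 90.4, 136 and 175 CPM at 18 h. In WT it was at 0.932, 2.06, 1.49 and 1.31 CPM at 0 h, 365, 228, 262 and 217 CPM at 4 h and 33.1, 38.7, 55.3 and 51.2 CPM at 18 h. Its log2 fold change at 4 h against 0 h was 7.09 ± 0.32, adjusted p = 1.2e-14 in the labelled KO and 7.55 ± 0.29, adjusted p = 4.5e-16 in WT, and at 18 h against 4 h it fell by 1.31 and 2.59. The 3 times did not overlap in either genotype, so the peak lay at 4 h.

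Thrombospondin 1 moved in the opposite order. Thbs1 in the labelled KO was at 932, 848 and 1020 CPM at 0 h, 352, 356 and 481 CPM at 4 h and 11253, 14054 and 15569 CPM at 18 h. In WT it was at 973, 1172, 1024 and 910.0 CPM at 0 h, 623, 335, 400.3 and 369 CPM at 4 h and 4640, 5303, 6498 and 6727 CPM at 18 h. The gene fell at 4 h in both genotypes (log2 fold change -1.24 ± 0.20 in the labelled KO and -1.24 ± 0.17 in WT) and rose at 18 h against 0 h (3.87 ± 0.22, adjusted p = 9.1e-13 in the labelled KO, 2.51 ± 0.18, adjusted p = 4.2e-11 in WT). Its libraries were close to one another within each group.

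Igfbp4 fell at both times. In the labelled KO it was at 217, 212 and 192 CPM at 0 h, 101, 91 and 91.1 CPM at 4 h and 15.4, 9.11 and 11 CPM at 18 h. In WT it was at 210.4, 240.1, 261 and 212 CPM at 0 h, 84.6, 122, 107 and 115 CPM at 4 h and 10.1, 11.6, 7.88 and 9.06 CPM at 18 h. The log2 fold change at 18 h against 0 h was -4.13 ± 0.17, adjusted p = 6.5e-15 in the labelled KO and -4.56 ± 0.15, adjusted p = 1.4e-16 in WT. Pdgfrb rose at 4 h and was not called at 18 h against 0 h. Its labelled-KO levels were 1.11, 1.28 and 1.78 CPM at 0 h, 7.01, 11.1 and 11.5 CPM at 4 h and 0.609, 1.4 and 5.41 CPM at 18 h (2.81 ± 0.57, adjusted p = 0.00015 at 4 h against 0 h). In WT it was at 0.532, 2.35, 0.35 and 0.281 CPM at 0 h, 14.1, 8.16, 8.13 and 7.08 CPM at 4 h and 0.915, 0.861, 0.483 and 0.793 CPM at 18 h (3.37 ± 0.51, adjusted p = 3.4e-06). Every library at 4 h was above every library of its genotype at 0 and 18 h.

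Other members also rose with LPS. Fbn1 rose at 4 h (1.74 ± 0.62, adjusted p = 0.015 in the labelled KO, 2.14 ± 0.60, adjusted p = 0.0028 in WT) and was above 0 h at 18 h (2.23 ± 0.61, adjusted p = 0.0027 and 1.51 ± 0.61, adjusted p = 0.032). WT number 2 at 0 h, at 5.32 CPM of Fbn1, lay inside the WT range at 4 h (5.28 to 9.09 CPM) and at 18 h (2.99 to 7.08 CPM). Dcn rose at 4 h in the labelled KO (2.18 ± 0.93, adjusted p = 0.04) and at 18 h in both genotypes, to 126 counts over the labelled-KO libraries against 11 at 0 h, and to 123 counts over the WT libraries against 9 at 0 h. The ratios of these sums per scaled library were 20.5 (95% counting interval 11.1 to 42.1) in the labelled KO and 20.8 (10.6 to 46.5) in WT. Lox rose at 18 h (1.55 ± 0.65, adjusted p = 0.037 in the labelled KO, 2.45 ± 0.65, adjusted p = 0.002 in WT) and in WT at 4 h (1.96 ± 0.67, adjusted p = 0.011); in WT it was at 14.5, 12.1, 14.5 and 12.6 CPM at 18 h, against 2.18, 5.46, 1.36 and 0.422 CPM at 0 h, without overlap. Col4a2 rose at 18 h (1.42 ± 0.61, adjusted p = 0.042 and 1.63 ± 0.58, adjusted p = 0.016). In WT Col4a2 was at 6.41, 5.01, 7.08 and 6.17 CPM at 18 h, against 0.586, 5.75, 0.919 and 0.562 CPM at 0 h, where number 2 lay inside the 18 h range. Loxl3 fell in WT at 4 h (-0.62 ± 0.21, adjusted p = 0.0091) and rose at 18 h against 0 h (0.55 ± 0.22, adjusted p = 0.034 in the labelled KO and 0.68 ± 0.19, adjusted p = 0.0037 in WT). Tnc rose at 18 h in the labelled KO (1.89 ± 0.83, adjusted p = 0.046). In the labelled KO the rises of Col4a2, Tnc, Lox and Loxl3 at 18 h were not called without number 4 at 18 h or without number 2, 3 or 4 at 0 h. There Dcn at 4 h was lost without number 4 at 4 h or number 3 or 4 at 0 h, and Fbn1 at 4 h without number 4 at 4 h or number 2 at 0 h. In WT the rise of Fbn1 at 18 h was lost without number 1, 3 or 4 at 0 h or number 3 or 4 at 18 h, and that of Col4a2 without number 1 at 0 h. The count of 10 calls in the labelled KO at 18 h against 0 h was 6 without number 2, 3 or 4 at 0 h or number 4 at 18 h, and that of 6 calls at 18 h against 4 h was 15 without number 4 at 4 h. Tagln rose at 4 h in WT (1.12 ± 0.47, adjusted p = 0.036), a call lost without WT number 1, 3 or 4 at 0 h or number 2 or 4 at 4 h.

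The other calls at 18 h against 0 h were falls. Fn1 fell in WT (-2.14 ± 0.76, adjusted p = 0.016), at 5.13, 5.48, 11.7 and 7.02 CPM at 18 h, against 19.4, 84.1, 11.2 and 10.2 CPM at 0 h. Myl9 fell in WT (-3.03 ± 1.27, adjusted p = 0.039), with 8 counts at 18 h and 107 at 0 h (ratio 0.114, interval 0.0478 to 0.232). Lamc1 fell in WT (-0.39 ± 0.14, adjusted p = 0.014), at 32.4, 39.9, 43.4 and 43 CPM at 18 h, against 48.6, 64, 51.7 and 43.6 CPM at 0 h. Lamc1 did not overlap, Fn1 overlapped, and without WT number 2 at 0 h none of Fn1, Myl9, Lamc1 and Cnn1 was called. Cnn1 had 0 counts at 18 h and 15 at 0 h in WT, at least 3.29-fold lower (floor of 3 counts over the WT group), and 6 and 65 counts in the labelled KO (ratio 0.165, interval 0.0585 to 0.38). Number 4 at 0 h held 47 of those 65 counts. The fall of Cnn1 in the labelled KO was not called without it, without number 2 or 3 at 18 h, or with DESeq2 (adjusted p = 0.059). In WT that of Cnn1 was also lost without number 1 at 0 h or any 1 library at 18 h. Myl9 was lost there without number 1, 2 or 4 at 18 h, and Lamc1 without number 1 at 18 h. Against 4 h, levels at 18 h were higher for Dcn (2.02 ± 0.72, adjusted p = 0.018 in the labelled KO and 2.55 ± 0.72, adjusted p = 0.0035 in WT) and Loxl3 (1.00 ± 0.24, adjusted p = 0.00083 in the labelled KO), which was called higher in WT too (adjusted p = 8.8e-06). In WT they were lower for Fn1 (-2.26 ± 0.77, adjusted p = 0.013) and Lamc1 (-0.43 ± 0.14, adjusted p = 0.0079). The rise of Dcn in the labelled KO was lost without number 2 or 3 at 4 h or number 4 at 18 h. The fibrillar collagens, collagen VI, Acta2, Tpm2 and Cald1 had no call in any LPS comparison.

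The difference between the genotypes in the LPS response was tested itself. At 18 h against 0 h, 2 of 45 members responded more in the labelled KO and 0 less, against 8.57% and 9% of all tested genes. At an unadjusted p under 0.05 edgeR gave 3 and 0, and DESeq2 called 2 and 0. Of all 12529 genes, 3927 had an unadjusted edgeR p under 0.05 in either direction, and DESeq2 called 1468 and 1038. Thbs1 had a difference of 1.36 ± 0.26, adjusted p = 0.0012 on the log2 scale, and Lamc1 of 0.64 ± 0.21, adjusted p = 0.035. Lamc1 was at 54.7, 68 and 87.8 CPM in the labelled KO at 18 h and 52.8, 56.1 and 67.9 CPM at 0 h, so its range moved up in the labelled KO and down in WT. The call of Lamc1 was lost without labelled-KO number 2 or 3 at 0 h, labelled-KO number 4 at 18 h, WT number 2 at 0 h, or WT number 1 or 2 at 18 h, each left out alone, and that of Thbs1 was not lost. At 4 h 0 members differed in their response, against 0.599% of all tested genes with a greater and 0.2% with a smaller response. At an unadjusted p under 0.05 edgeR gave 0, and DESeq2 called 0. Of all 12529 genes, 1272 had an unadjusted edgeR p under 0.05 in either direction, and DESeq2 called 159 greater and 45 smaller. The interaction was not called for any fibrillar collagen or contractile gene, so a larger difference at 18 h than at 0 h was not detectable for them.

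Ratios of counts between 2 members were taken within each library and are compared between libraries only. The ratio of Acta2 to Col1a1 counts was 0.144 to 0.311 at 18 h and 0.405 to 0.588 at 0 h in the labelled KO, and 0.101 to 0.48 at 18 h and 0.437 to 0.935 at 0 h in WT. The mean log2 ratio differed by -1.09 in the labelled KO (two-sided exact permutation p = 0.1, the smallest that 3 against 3 allows) and by -1.41 in WT (exact permutation p = 0.057). Both groups of the labelled KO were apart, and those of WT overlapped. The ratio of Col1a1 to Col1a2 was 0.645 to 0.732 at 18 h and 0.858 to 1.04 at 0 h in the labelled KO, again apart (exact permutation p = 0.1), and 0.634 to 1.17 and 0.854 to 1.07 in WT (exact permutation p = 0.83). The ratio of Col4a2 to Col4a1 was 2.49 to 6.39 at 18 h and 0.509 to 1.59 at 0 h in WT, a difference of 2.31 on the log2 scale (exact permutation p = 0.029, the smallest that 4 against 4 allows). In the labelled KO it was 0.729 to 3.55 at 18 h and 0.577 to 0.799 at 0 h (exact permutation p = 0.2). After Benjamini-Hochberg adjustment over the 16 ratio tests the lowest value was 0.26, so none passed.

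**Figure D4:**
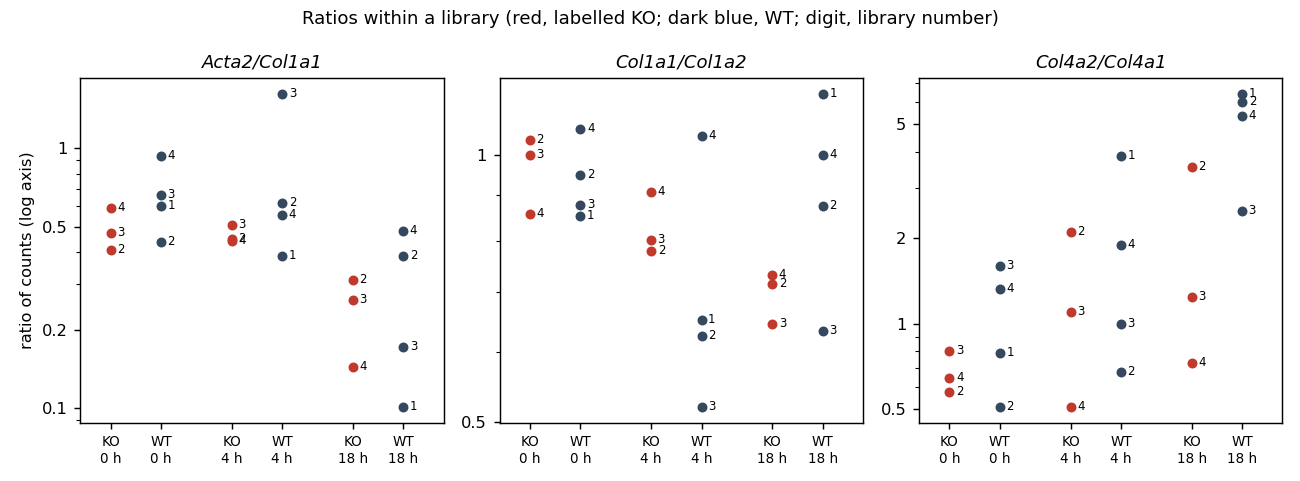
Ratio of counts of 2 members within each library (log axis), by time of LPS, with labelled KO (red) left of WT (dark blue) and digits for library numbers. Acta2 to Col1a1 is at 0.144 to 0.311 in the labelled KO at 18 h and 0.405 to 0.588 at 0 h, and Col4a2 to Col4a1 in WT is above 2.4 in all 4 libraries at 18 h.

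A second list of 83 matrix, matrix-processing and contractile genes that are not members shows the rest of the pathway, and 63 were tested. At 18 h 28 (44.4%) were called higher in the labelled KO and 4 (6.35%) lower, against 16.6% and 15.6% of all tested genes. The median log2 fold change was 1.00, against -0.01 for all genes. Labelled-KO number 4 was the highest library at 18 h for some of the list, such as Timp1 at 14.7, 22.9 and 72.2 CPM. It was not for others, such as Plod3 at 238, 208 and 233 CPM in the labelled KO. How many of the 28 calls hold without number 4 was not counted. The largest rises at 18 h were those of Col11a1 and Adamts2. Col11a1, a minor fibrillar collagen, was at 0, 0.35 and 0.356 CPM in the labelled KO and had no count in WT. This rests on few reads, and labelled-KO number 2 had none either, so the size of the rise is not known. Adamts2, which trims procollagen ends, was at 0.261, 1.66 and 7.04 CPM in the labelled-KO libraries, against 0.061, 0.0783, 0.161 and 0.113 CPM in the WT libraries (4.87 ± 1.18, adjusted p = 0.0036). The largest falls were those of Bmp1 and Crtap. Bmp1, which trims the other procollagen end, was at 13.6, 11.9 and 14.7 CPM in the labelled-KO libraries, against 27, 25.4, 18.6 and 19.9 CPM in the WT libraries (-0.76 ± 0.28, adjusted p = 0.04). Crtap, a part of the collagen prolyl hydroxylase complex, was at 13.6, 13.8 and 13.8 CPM in the labelled-KO libraries, against 21.7, 21.9, 16.1 and 21.7 CPM in the WT libraries (-0.57 ± 0.12, adjusted p = 0.0011). All 3 labelled-KO libraries were below every WT library for both. At 0 h 3 were higher (Col11a1, Ltbp1 and Bmp1) and 2 lower (Col18a1 and Flna), which is 4.76% and 3.17%, against 1.11% and 2.87% of all genes. At 4 h 2 were higher (Col11a1 and Ltbp1) and 2 lower (Cnn2 and Mmp14), which is 3.17% each, against 2.87% and 2.7%. Ltbp1, which stores latent TGF-beta in matrix, was at 1.83, 4.12 and 13.3 CPM in the labelled-KO libraries, against 0.671, 0.744, 1.13 and 0.963 CPM in the WT libraries at 18 h (2.91 ± 0.68, adjusted p = 0.0027).

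With LPS the second list was called in both directions. At 18 h against 0 h 22 (34.9%) rose and 13 (20.6%) fell in the labelled KO, against 34.5% and 38.5% of all genes. In WT 18 (28.6%) rose and 21 (33.3%) fell, against 34.8% and 36.3%. At 4 h against 0 h 17 (27%) rose and 9 (14.3%) fell in the labelled KO, against 33.5% and 41.5%. In WT 21 (33.3%) rose and 13 (20.6%) fell, against 35.1% and 43%. The membrane metalloproteinase gene Mmp14 was at 619, 662 and 711 CPM at 18 h, against 32.2, 29 and 33.4 CPM at 0 h in the labelled KO (4.39 ± 0.13, adjusted p = 4.4e-17). In WT Mmp14 was at 571, 519, 589.9 and 655 CPM at 18 h, against 31.4, 39.2, 37.6 and 39.5 CPM at 0 h. Timp2, an inhibitor of metalloproteinases, fell (-2.90 ± 0.13, adjusted p = 1.4e-14 in the labelled KO and -2.84 ± 0.11, adjusted p = 1.6e-15 in WT). From 4 to 18 h 8 (12.7%) rose and 26 (41.3%) fell in the labelled KO, against 33.3% and 32.1% of all genes. In WT 10 (15.9%) rose and 27 (42.9%) fell, against 37.2% and 34.5%. Cnn3, a calponin of many cell types, fell most (log2 fold change -5.27 ± 0.44 in the labelled KO and -7.26 ± 0.44 in WT). The response to 18 h of LPS was greater in the labelled KO for 3 genes (Actn1, Flna and Csrp1) and smaller for 3 (Bmp1, Crtap and P4hb), 4.76% each against 8.57% and 9% of all genes.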

How the data were processed

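Poly(A) RNA libraries (KAPA mRNA HyperPrep, per the labels' protocols) of 21 macrophage cultures were sequenced. The submitters' processing notes name CASAVA 1.8.2, HISAT2 2.1.0 and build mm10; no counting tool or strand setting is given in the sources used here. The authors deposited unscaled estimated counts for each RefSeq transcript, which move in steps of 0.5. Counts had been assumed whole in the planned design, so values were rounded (0.5 upward) before the planned test.

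Of 42361 transcript IDs, 42203 matched a RefSeq table and 65 a GENCODE annotation. The other 93 (0.232 to 2.229% of counts per library) were left out. Each of 25067 genes was represented by its transcript of highest mean count. edgeR 4.0.16 (quasi-likelihood test, R 4.3.3) was fitted to all 21 libraries with 6 group means, TMM factors and its default expression filter, which kept 12529 genes. Calls are at a Benjamini-Hochberg adjusted p under 0.05 over all of them. Values after ± are standard errors, from the log2 fold change and the F statistic (fold change over root F). CPM uses TMM library sizes. Intervals of count ratios are 95% exact binomial ones, floors are 3 counts over a group, and both cover counting error only. Ratios within libraries add 0.5 to each count on the log2 scale. On simulated data the test recovered most of the changes put in. That simulation gave all genes the same low spread, changed only better expressed genes and had no outlying library. It therefore does not cover members of low level or wide spread. Within groups, every pair of libraries differed beyond sampling noise. Figures were drawn with matplotlib 3.10.9.

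The members, lists and tests were chosen with earlier results of these data known, so no p-value is given over the list. Named by rule were members called between genotypes or in an interaction, the 2 of highest mean CPM per role, up to 4 called per sign in each LPS comparison, and up to 2 genes per sign and comparison of the second list; other genes named were chosen after their values were seen. Alternatives were DESeq2 1.42.0, other factors and filters, fits restricted to the groups compared, a block for the replicate number, and leaving out libraries. Same-numbered WT libraries at 0 and 4 h deviated together from their group means (correlation over genes 0.23 to 0.32, against -0.23 to 0.09 for other numbers), a pairing read from the data and not given by the labels. In the labelled KO same-numbered libraries at 4 and 18 h correlated at 0.1 to 0.5, against -0.48 to 0.11 for other numbers. Those at 0 and 4 h did so at 0.02 to 0.2, against -0.17 to 0.02, and those at 0 and 18 h at -0.07 to 0.25, against -0.35 to 0.18. The main fit treated all libraries as independent.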

Additional observations from a re-analysis of the deposited data

Results flagged for a closer look

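Members and times with a level of at least 1 CPM gave 115 groups of 4 WT libraries. In 40 of them 1 library was far from the others (gap to the nearest library over the range of the group above Dixon's critical value). The critical value assumes normally distributed values, which the unlogged CPM used here need not be. A rate expected by chance is therefore not given, and the members are not independent of each other. WT number 2 at 0 h was the library set apart 29 times. Its fibrillar collagens stood at 39.4 CPM for Col1a1, 41.5 CPM for Col1a2, 8.07 CPM for Col3a1, 8.07 CPM for Col5a1 and 6.48 CPM for Col5a2. Collagen VI and basement membrane genes were at 5.32 CPM for Col6a1, 4.12 CPM for Col6a2, 11.3 CPM for Col4a1, 5.75 CPM for Col4a2, 1.63 CPM for Nid2, 2.71 CPM for Lamb1 and 5.28 CPM for Hspg2. Proteoglycans and glycoproteins were at 19.2 CPM for Bgn, 84.1 CPM for Fn1, 5.32 CPM for Fbn1, 2.1 CPM for Fbln2, 19.8 CPM for Sparc, 10.5 CPM for Tnc, 2.71 CPM for Thbs2, 3.47 CPM for Ccn1 and 1.77 CPM for Mgp. The other genes were at 1.12 CPM for Loxl1, 8.65 CPM for Serpinh1, 2.89 CPM for Myl9, 2.24 CPM for Tpm2, 13.2 CPM for Cald1, 3.47 CPM for Cxcl12, 1.05 CPM for Pdgfra and 2.35 CPM for Pdgfrb.

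WT number 3 at 18 h stood apart at 2.82 CPM for Col4a1, 1.45 CPM for Nid1, 1.69 CPM for Hspg2, 12.1 CPM for Bgn, 4.1 CPM for Tnc, 5.47 CPM for Serpinh1, 6.27 CPM for Cald1, 1.61 CPM for Cxcl12 and 1.45 CPM for Pdgfra. At 4 h Fn1 was at 55.8 CPM in WT number 2, and Pdgfrb at 14.1 CPM in WT number 1. All of these were the highest library of their group. The response to 18 h of LPS differed between labelled KO and WT, by the interaction test, by 1.36 on the log2 scale for Thbs1 and by 0.64 for Lamc1.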

How the results depend on the processing

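Of 1602 refits of the 94 called pairs of member and comparison, 1367 stayed called in the same direction, 235 lost the call and 0 changed direction; 16 had no value because the gene failed the filter. Counts of members called moved as follows, and the cause was not tested. Between genotypes at 0 h (1 called), there were 2 without a filter and 2 with only the groups compared. There were 34 without the highest-Prrx1 library of each group and 32 without the library of highest mesenchymal marker sum. Over all genes these settings called 128, 142, 165 and 148 higher and 353, 379, 193 and 186 lower. The genes tested then were 17997, 11949, 12489 and 12422. At 4 h (4 called) the same settings gave 16, 0, 0 and 0 members. Over all genes they called 355, 163, 67 and 83 higher and 367, 109, 74 and 81 lower. Leaving out labelled-KO number 4 at every time gave 0 members at 4 h, with 138 higher and 131 lower over all genes. At 18 h (37 called) leaving it out gave 9, with 1279 of 12545 genes called higher. For WT at 4 h against 0 h (8 called) the marker-sum setting gave 18 and the Prrx1 setting 13, and for the labelled KO (6 called) 13 and 14. Over all genes the 2 settings called 4216 and 4242 higher and 5087 and 5133 lower in WT. In the labelled KO they called 3907 and 3914 higher and 4743 and 4737 lower. These settings differ only in WT at 4 h, where the Prrx1 setting left out number 2 and the marker-sum setting number 3. Of the 79.2 CPM of that number 3, Pdpn held 78.6 CPM. Without Pdpn and Fap it was the lowest WT library at 4 h (0.0914 CPM), so there the marker-sum setting did not remove the library richest in the other mesenchymal markers. WT at 18 h against 4 h (8 called) gave 16 with only the groups compared and 17 by marker sum. Over all genes 4371 and 4288 were then higher and 4023 and 4071 lower. The labelled KO at 18 h against 0 h (10 called) gave 6 with DESeq2, 6 with upper-quartile factors and 5 without number 4. Over all genes 4536, 3539 and 4046 were then higher and 4535, 5838 and 4404 lower. The interaction at 4 h (0 called) gave 2 by marker sum and 2 by Prrx1. Of all genes 20 and 17 then had a greater response and 9 and 9 a smaller one. That at 18 h (2 called) gave 1 with only the groups compared and 1 without number 4. Of all genes 1144 and 692 then had a greater response and 1203 and 576 a smaller one. The Prrx1 and number 4 settings were chosen after seeing the data.

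Leaving out 1 library at a time gave 0 to 28, 0 to 10 and 6 to 39 calls between genotypes at 0, 4 and 18 h. Genes called higher over all genes went from 139 to 185 without WT number 2 at 0 h. They went from 359 to 224 without labelled-KO number 2 at 4 h, and from 2074 to 1338 without number 4 at 18 h. In WT leaving out 1 library gave 7 to 10 at 4 h against 0 h, 9 to 12 at 18 h against 0 h and 8 to 8 at 18 h against 4 h. In the labelled KO it gave 5 to 8, 6 to 12 and 5 to 15, and in the interactions 0 to 1 at 4 h and 1 to 3 at 18 h. With a block for replicate number, 0, 0 and 29 members were called between genotypes at 0, 4 and 18 h, where nothing in the data or labels pairs the numbers. Over all genes 133, 315 and 2115 were then called higher. The block gave 10, 14 and 11 in WT, 8, 12 and 7 in the labelled KO, and 0 and 3 in the interactions; for WT at 4 h against 0 h, where the numbers deviate together, it added Col4a2 and Myl9. Upper-quartile factors moved the median of all genes in WT at 4 h against 0 h to -0.52, against -0.17 with TMM, and the calls over all genes to 3359 higher and 6935 lower, against 4403 and 5383. In the labelled KO at 4 h the median was -0.47 against -0.14 (3294 higher and 6582 lower, against 4196 and 5198), and in WT at 18 h against 0 h -0.23 against -0.05 (3516 and 5591, against 4359 and 4554). With these factors 9 calls were lost: Pdgfrb between genotypes at 18 h, Dcn at 4 h and Col4a2, Tnc, Lox and Loxl3 at 18 h against 0 h in the labelled KO, and in WT Tagln at 4 h, Fbn1 at 18 h against 0 h and Lamc1 at 18 h against 4 h. Low counts limit many members in WT, where 16 to 23 had at least 10 counts in every library of a group. In the labelled KO 29 to 43 had.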
